A study of Mus musculus with 8 samples.

Results

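The Ikaros, ZEB, BCL11A, BACH2 and interferon regulatory factor genes that act around the pro-B to pre-B transition were followed in pro-B cells with and without menin, the protein encoded by Men1. The members were Ikzf1, Ikzf2, Ikzf3, Ikzf5, Zeb1, Zeb2, Bcl11a, Bach2, Irf4 and Irf8. Every probe set of the Affymetrix Mouse Genome 430 2.0 array that the platform annotation gives to one of these 10 genes was taken, which made 33 of 45037 probe sets, and each is accounted for separately. Entrez identifiers matched all 33 to the RefSeq gene table under the same symbol. A probe set is a group of short oligonucleotides on the array that reads one transcript or part of it.

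The menin-deficient group held 4 Rag1-cre;MenF/F mice, in which Rag1 sequences drive Cre in lymphoid progenitors and Cre removes the floxed Men1 alleles. The control group held 4 MenF/F mice, which carry the same floxed alleles and no Cre, so the presence of Cre and the loss of menin cannot be told apart. Fraction B cells, pro-B cells with the surface phenotype B220+CD43+HSA+BP-1-, came from the bone marrow of mice labelled 2 to 3 weeks old and described elsewhere in the record as 3 weeks old. One array was made per mouse from RNA amplified once. The study asked which genes menin regulates in bone marrow B-cell progenitors.

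Ikaros family proteins are zinc finger factors that bind DNA as dimers, recruit the NuRD chromatin remodelling complex, and bring proliferating pre-B cells to exit the cycle and differentiate. IRF4 and IRF8 act with the Ets factors PU.1 and SpiB at composite elements of immunoglobulin light chain genes, and raise Ikzf1 and Ikzf3 downstream of the pre-B cell receptor. ZEB proteins repress genes through E2 boxes, BCL11A is needed to make B-lineage cells at all, and BACH2 pairs with small Maf proteins to repress genes at Maf recognition elements.

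The values ran on a log2 scale from a lowest value of 2.08, where 36.1% to 36.7% of the probe sets of each array sat, to 17.4. Correlations between arrays over all tested probe sets were 0.990 to 0.995 within groups and 0.985 to 0.991 between groups. The targeted gene Men1 averaged 8.15 ± 0.278 in menin-deficient cells and 9.54 ± 0.256 in control cells on its brightest probe set (SD, n = 4 each), a log2 difference of -1.39 (limma adjusted p = 0.00617). Whether that probe set lies inside the deleted exons was not examined. The B progenitor markers Cd79a, Cd79b, Vpreb1, Igll1, Pax5, Ebf1, Blnk, Il7r and Rag1 were all far above the lowest value in both groups. Their summed level, the log2 of the sum of the linear values, was 18.18 to 18.29 in menin-deficient cells and 18.11 to 18.17 in control cells. The brightest genes of a list weigh most in such a sum.

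The promoters of the members that changed are printed first, as the sequence beside which the values below can be read. RefSeq promoter sequences (GRCm38.p6) were at hand for 7 of the 10 members. Among the members that changed, Zeb2, Bcl11a and Bach2 had one, and Ikzf2 and Ikzf3 are named only. Each sequence is the 250 bases before an annotated transcription start, 5′ to 3′ on the strand of the gene, with matches to the searched motifs in capitals. Zeb2 has 4 annotated starts, of which the farthest upstream and the farthest downstream are shown, at chr2:45117443-45117692 and chr2:45110278-45110527, both on the minus strand. Bcl11a starts after chr11:24080445-24080694 and Bach2 after chr4:32417185-32417434, both on the plus strand.
Zeb2 start 1: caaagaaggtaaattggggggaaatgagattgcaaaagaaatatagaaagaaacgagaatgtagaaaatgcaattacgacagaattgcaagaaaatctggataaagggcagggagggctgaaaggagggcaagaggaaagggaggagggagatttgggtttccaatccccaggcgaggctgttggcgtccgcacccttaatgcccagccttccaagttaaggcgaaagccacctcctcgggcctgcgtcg
Zeb2 start 4: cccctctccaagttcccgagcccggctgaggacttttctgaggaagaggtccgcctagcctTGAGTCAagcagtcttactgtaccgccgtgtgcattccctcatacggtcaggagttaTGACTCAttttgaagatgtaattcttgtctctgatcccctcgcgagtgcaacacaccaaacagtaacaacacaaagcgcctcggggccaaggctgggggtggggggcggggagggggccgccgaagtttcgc
Bcl11a: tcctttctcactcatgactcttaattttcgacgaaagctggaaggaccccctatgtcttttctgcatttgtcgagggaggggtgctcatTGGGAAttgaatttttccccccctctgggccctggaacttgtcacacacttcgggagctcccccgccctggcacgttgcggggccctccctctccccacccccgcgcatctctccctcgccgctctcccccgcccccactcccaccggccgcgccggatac
Bach2: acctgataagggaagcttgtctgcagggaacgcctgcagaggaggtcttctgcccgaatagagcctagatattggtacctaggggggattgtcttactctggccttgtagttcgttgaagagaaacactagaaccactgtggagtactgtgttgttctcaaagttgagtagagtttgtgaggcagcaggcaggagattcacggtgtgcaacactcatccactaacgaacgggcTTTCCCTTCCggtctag

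The letters searched, on both strands, were TGGGAA for the Ikaros core, CAGGTG for the ZEB E2 box, GAAA followed after any 2 bases by GAAA for the interferon response element, GGAA followed after any 2 bases by GAAA for the Ets-IRF composite element and TGANTCA for the core that BACH and Maf proteins share with AP-1. Over the 32851 mouse promoters in the table these were present in 21.6%, 17.2%, 2.98%, 2.3% and 6.75% of windows of the same 250 bases. TGANTCA matched 2 times in the most downstream Zeb2 promoter and not in the most upstream one, which held none of the 5 motifs. The Bcl11a promoter had 1 TGGGAA and the Bach2 promoter 1 match to the Ets-IRF element, read on the other strand. A match is a description of the letters and not evidence of binding.

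Of the 33 member probe sets, 29 were above the filter on low values and entered the test. In limma, with p-values adjusted over all 26790 tested probe sets, 8 of the 29 passed an adjusted p of 0.05, against 14.2% of all tested probe sets. These 8 lay in 5 genes. Ikzf2 and 1 probe set of Bcl11a rose in menin-deficient cells, while Ikzf3, Zeb2 and Bach2 fell. The 3 that rose compare with 9.34% of all tested probe sets, and the 5 that fell with 4.87%. The array as a whole leaned upward, with 2503 rises and 1305 falls in menin-deficient cells, and this split was 1779 to 1663 after quantile normalization and 1700 to 1552 after median centring. The median log2 difference was -0.19 over the tested member probe sets and 0.04 over all tested probe sets. Menin-deficient and control arrays did not overlap for 12 of the 29, against 21.4% of all tested probe sets. Members with at least 1 probe set passing the test were 5 of 10, against 24.3% of all tested genes and 31.5% of the 5755 genes with a like number of tested probe sets (2 to 6).

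**Figure D1:**
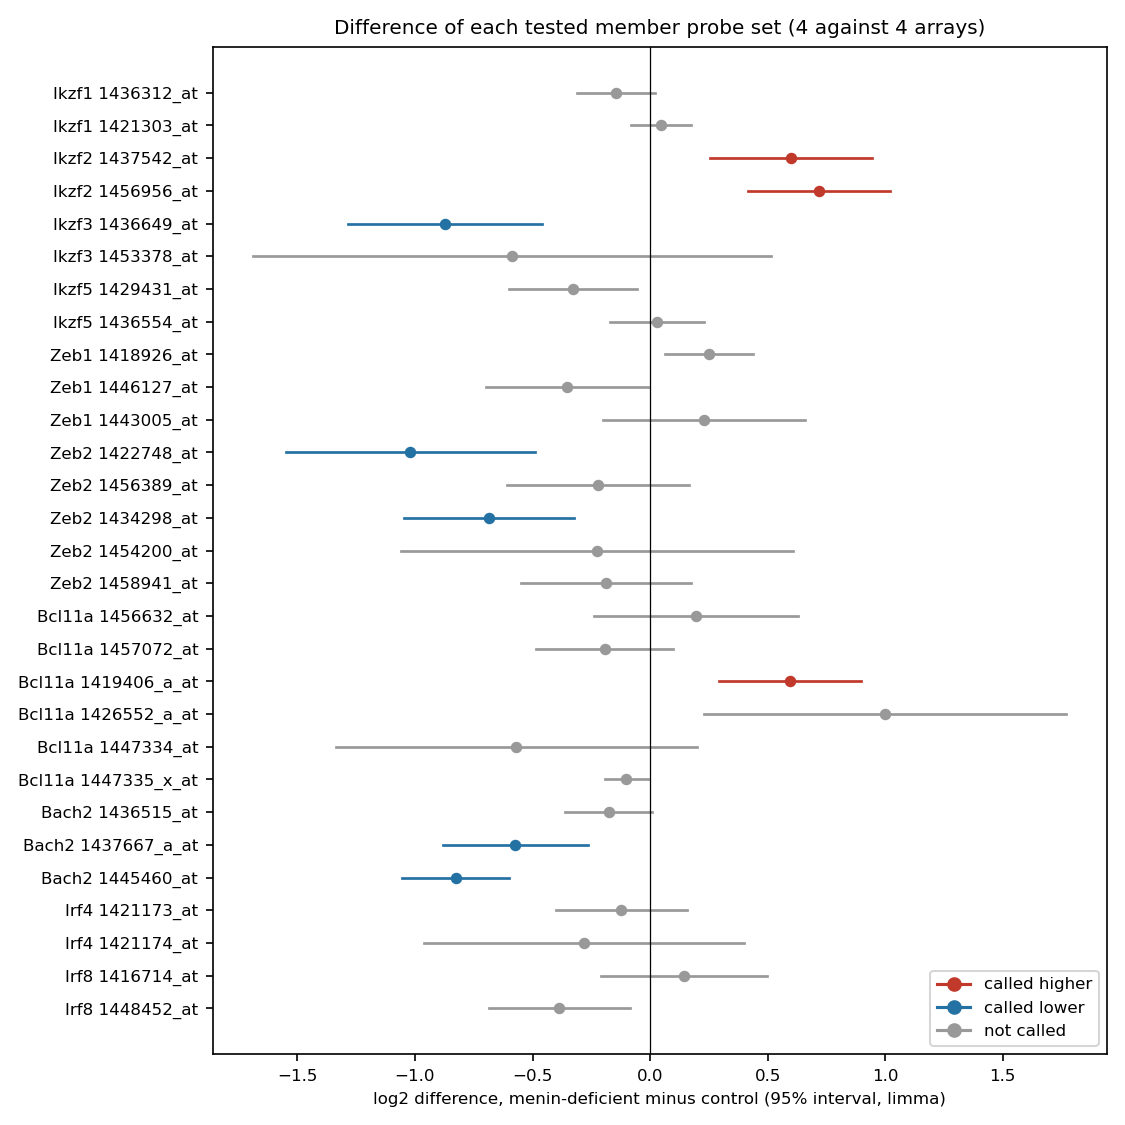
Log2 differences, menin-deficient minus control, of the 29 tested member probe sets by gene (vertical axis), with limma 95% intervals as horizontal bars; the vertical line marks 0 and coloured points passed an adjusted p of 0.05. Of the 29 differences, 10 lie above 0 and 19 below.

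Ikzf3 fell while Ikzf1, its partner in the same dimers, did not pass the test. Ikzf3 encodes Aiolos, an Ikaros family member that appears as pro-B cells become pre-B cells. On the probe set 1436649_at it read 10.22, 10.29, 10.15 and 10.68 in menin-deficient cells, against 11.57, 10.89, 11.27 and 11.10 in control cells. All 4 menin-deficient arrays were below all 4 control arrays. The means were 10.34 ± 0.238 in menin-deficient cells and 11.21 ± 0.289 in control cells (SD, n = 4 each), a 1.83-fold fall (log2 difference -0.87, SE 0.175, limma adjusted p = 0.0213). Without menin-deficient replicate 2 the adjusted p was 0.0644, and without menin-deficient replicate 3 it was 0.0528. The other Ikzf3 probe sets gave no usable level: 1453378_at stood at 2.11 to 2.40 on every array except control replicate 3 (4.24), and 1441088_at did not enter the test. In RNA from sorted cells, fewer cells of a kind and less RNA per cell cannot be told apart, and this holds for every value given here.

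Ikzf1 encodes Ikaros itself. Its bright probe set 1436312_at read 13.55, 13.75, 13.54 and 13.62 in menin-deficient cells, against 13.78, 13.62, 13.86 and 13.79 in control cells. The groups overlapped, and the log2 difference was -0.14 (95% interval -0.31 to 0.02, limma adjusted p = 0.219). The other Ikzf1 probe set, 1421303_at, lay near background at 4.01 to 4.17 on all 8 arrays. Set against Ikzf1 on the same arrays, Ikzf3 was lower in each menin-deficient array than in any control array. The within-array difference, Ikzf3 minus Ikzf1, averaged -3.28 in menin-deficient cells and -2.55 in control cells, a change of -0.73 (two-sided exact permutation p = 0.0286, the smallest that 4 arrays against 4 can give).

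Ikzf2 was the only member for which every tested probe set passed the test. It encodes Helios, which mature B cells hardly express and which is best known from T cells and natural killer cells. The probe set 1456956_at read 7.55, 7.87, 8.09 and 7.84 in menin-deficient cells, against 6.90, 7.21, 7.25 and 7.12 in control cells. All menin-deficient arrays lay above all control arrays. The means were 7.84 ± 0.222 in menin-deficient cells and 7.12 ± 0.156 in control cells (SD, n = 4 each), a 1.65-fold rise (log2 difference 0.72, SE 0.128, limma adjusted p = 0.0151). The probe set 1437542_at read 8.53, 8.54, 8.92 and 8.85 in menin-deficient cells, against 8.17, 8.23, 8.28 and 7.77 in control cells. These groups did not overlap either, and the rise was 1.51-fold (log2 difference 0.60, SE 0.146, limma adjusted p = 0.0383). That call was lost after quantile normalization (adjusted p = 0.0650), after median centring (0.0609) and with sex, inferred from expression, in the model (0.0554). It was also lost without any 1 array except menin-deficient replicate 1 (0.0506 to 0.0934). The remaining Ikzf2 probe set, 1421643_at, was at the lowest value on every array and was not tested.

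Ikzf5 encodes Pegasus, a more divergent family member. The probe set 1429431_at read 10.36, 10.17, 10.01 and 10.31 in menin-deficient cells, against 10.79, 10.35, 10.47 and 10.55 in control cells. The groups overlapped slightly, with a log2 difference of -0.33 (95% interval -0.60 to -0.06, limma adjusted p = 0.108). The probe set 1436554_at gave 0.03 (adjusted p = 0.855), so no change of Ikzf5 was detected.

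**Figure D2:**
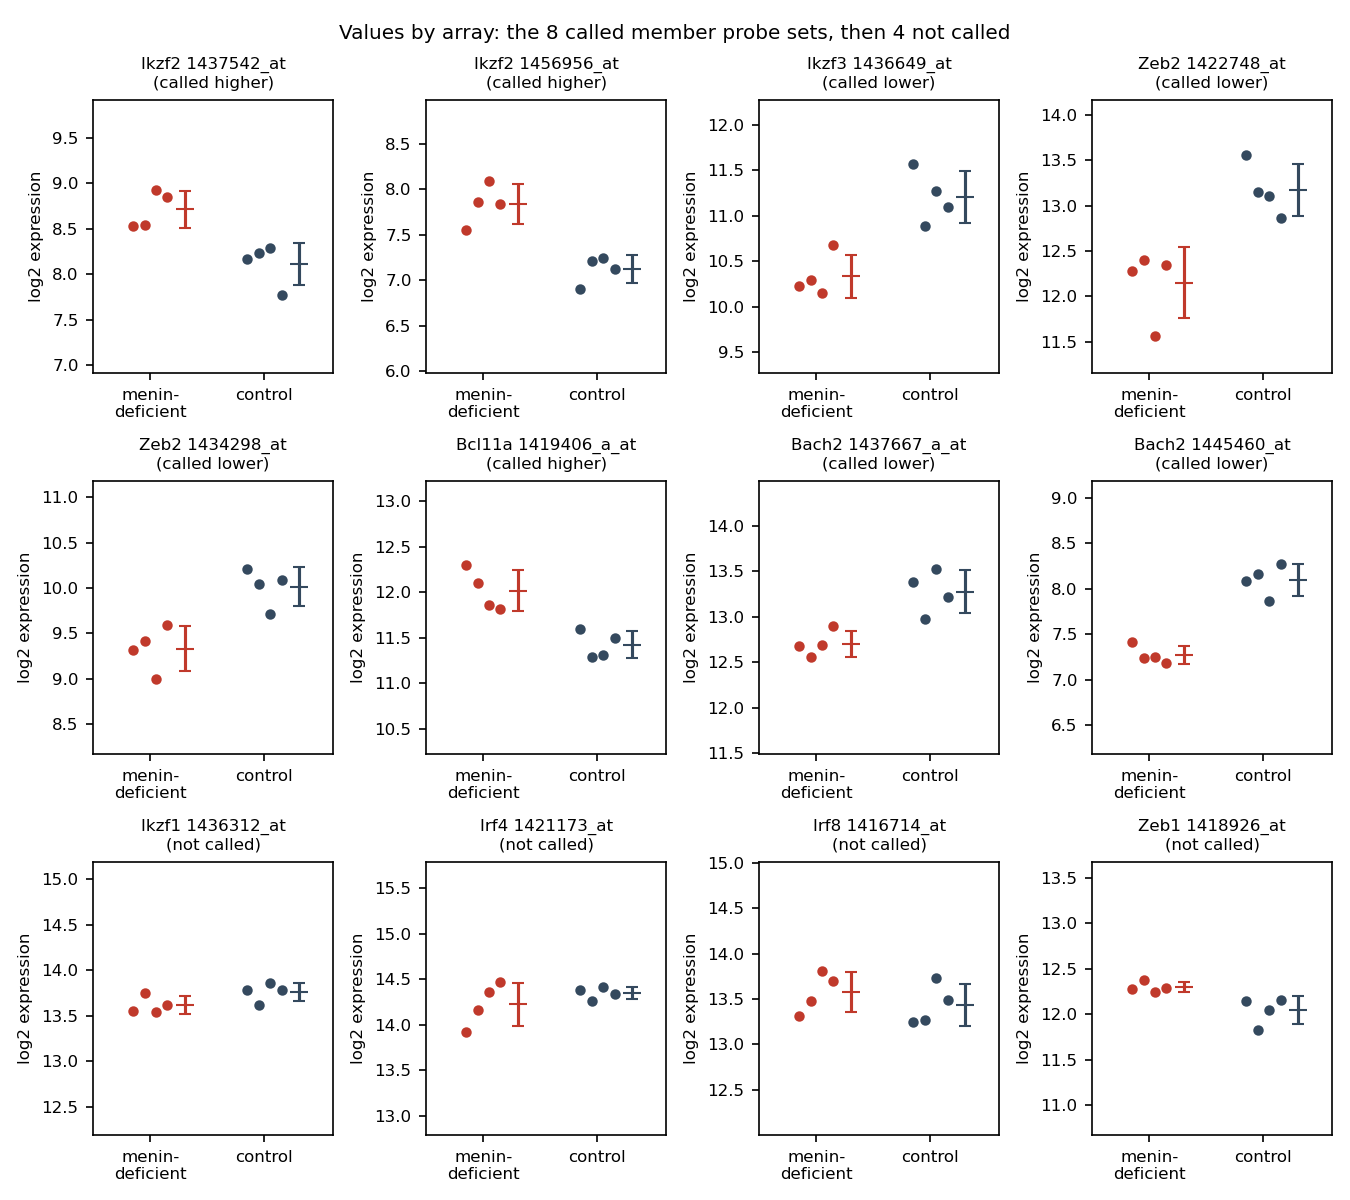
Deposited log2 values of 12 member probe sets on each array, menin-deficient left and control right in every panel, with mean and SD bars; every vertical axis spans 3 log2 units. In the 8 panels whose probe set passed the test, no menin-deficient array overlaps a control array.

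Zeb2 fell 2.03-fold on its brightest probe set, and no Zeb1 probe set passed the test. Zeb2 encodes a zinc finger and homeodomain repressor that is used across many blood lineages, among them B cells. The probe set 1422748_at read 12.28, 12.40, 11.57 and 12.35 in menin-deficient cells, against 13.55, 13.15, 13.10 and 12.87 in control cells. No menin-deficient array reached the lowest control array, and menin-deficient replicate 3 was the lowest of all. The means were 12.15 ± 0.39 in menin-deficient cells and 13.17 ± 0.285 in control cells (SD, n = 4 each; log2 difference -1.02, SE 0.224, limma adjusted p = 0.0285). The call was lost without control replicate 1 (adjusted p = 0.0680), control replicate 2 (0.0598), control replicate 3 (0.0560), menin-deficient replicate 2 (0.0563) or menin-deficient replicate 4 (0.0529).

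A dimmer Zeb2 probe set, 1434298_at, read 9.32, 9.42, 9.002 and 9.59 in menin-deficient cells, against 10.21, 10.05, 9.71 and 10.09 in control cells. Here too every menin-deficient array was below every control array, and the fall was 1.61-fold (log2 difference -0.68, SE 0.153, limma adjusted p = 0.0294). It lost the call with sex in the model (adjusted p = 0.0539) and without control replicate 1 (0.0774), 2 (0.0645) or 4 (0.0703) or menin-deficient replicate 1 (0.0602) or 2 (0.0696). The other Zeb2 probe sets overlapped between groups: 1456389_at differed by -0.22, 1454200_at by -0.23 and 1458941_at by -0.19 on the log2 scale, none passing the test. The probe set 1458941_at passed once control replicate 2 was left out (log2 difference -0.34, adjusted p = 0.0227). The Zeb2 gene lies on the same chromosome as Rag1, the gene whose sequences drive Cre, but no member lies within 10 Mb of Rag1 or of Men1.

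Zeb1 encodes the close relative of Zeb2. The probe set 1418926_at read 12.28, 12.37, 12.25 and 12.29 in menin-deficient cells, against 12.14, 11.83, 12.05 and 12.16 in control cells. The groups did not overlap, yet the log2 difference of 0.25 did not pass the test (SE 0.0794, 95% interval 0.06 to 0.44, limma adjusted p = 0.0806). The probe set 1446127_at differed by -0.35 (adjusted p = 0.155) and 1443005_at by 0.23 (adjusted p = 0.445). A further Zeb1 probe set, 1420243_at, was at the lowest value on all arrays and was not tested. The within-array difference of Zeb2 minus Zeb1 averaged -0.15 in menin-deficient cells and 1.12 in control cells. This shift of -1.27 did not overlap between groups (two-sided exact permutation p = 0.0286, the smallest the design allows). That separation was fixed by the values above, since Zeb2 was lower and Zeb1 higher in every menin-deficient array than in any control array. The p therefore adds nothing to them.

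The probe sets of Bcl11a did not move together. Bcl11a encodes a zinc finger repressor without which B-lineage cells do not form. On 1419406_a_at it read 12.30, 12.11, 11.86 and 11.81 in menin-deficient cells, against 11.60, 11.29, 11.31 and 11.50 in control cells. All menin-deficient arrays were above all control arrays, a 1.51-fold rise (means 12.02 ± 0.227 in menin-deficient cells and 11.43 ± 0.148 in control cells; log2 difference 0.59, SE 0.128, limma adjusted p = 0.0266). This call was lost without control replicate 2 (adjusted p = 0.0601), 3 (0.0596) or 4 (0.0524) and without menin-deficient replicate 2 (0.0782). The probe set 1426552_a_at read 10.11, 9.72, 9.11 and 9.21 in menin-deficient cells, against 9.03, 8.59, 7.80 and 8.72 in control cells. Its groups did not overlap either, but the spread was wide and the log2 difference of 1.00 missed the threshold (SE 0.326, limma adjusted p = 0.0875). It passed with a stricter filter on low values (adjusted p = 0.0421). The brightest probe set, 1456632_at, differed by 0.20 (adjusted p = 0.522) and 1457072_at by -0.19 (adjusted p = 0.341), with overlapping groups. Both probe sets near background, 1447334_at and 1447335_x_at, showed lower values in menin-deficient cells that did not overlap and did not pass, with adjusted p of 0.29 and 0.133. The first of them passed without control replicate 1 (log2 difference -0.22, adjusted p = 0.0309). The probe set 1453814_at was too low to be tested.

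Bach2 fell on 2 of its 3 probe sets and gave the smallest adjusted p among the tested member probe sets. Bach2 encodes a leucine zipper repressor that works at the pre-B cell receptor checkpoint and later delays plasma cell differentiation. The probe set 1445460_at read 7.41, 7.24, 7.25 and 7.18 in menin-deficient cells, against 8.09, 8.16, 7.86 and 8.27 in control cells. The groups were well apart relative to their spread, with means of 7.27 ± 0.0993 in menin-deficient cells and 8.10 ± 0.173 in control cells (SD, n = 4 each). The fall was 1.77-fold (log2 difference -0.83, SE 0.0958, limma adjusted p = 0.00468).

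On 1437667_a_at Bach2 read 12.68, 12.55, 12.69 and 12.90 in menin-deficient cells, against 13.39, 12.97, 13.53 and 13.22 in control cells. The groups did not overlap, and the fall was 1.49-fold (log2 difference -0.57, SE 0.131, limma adjusted p = 0.0319). It was lost with sex in the model (adjusted p = 0.0542) and without control replicate 1 (0.0848), 3 (0.0567) or 4 (0.0643) or menin-deficient replicate 1 (0.0653), 2 (0.0890) or 3 (0.0706). The brightest probe set, 1436515_at, read 13.99, 14.12, 14.23 and 14.21 in menin-deficient cells, against 14.31, 14.16, 14.44 and 14.34 in control cells. These groups overlapped, and the log2 difference of -0.18 did not pass (95% interval -0.36 to 0.01, limma adjusted p = 0.185). Averaged over the tested probe sets of each gene, Bach2 differed by -0.53 (limma adjusted p = 0.00267), Ikzf2 by 0.66 (0.0131) and Zeb2 by -0.47 (0.0157). The same average did not pass for Ikzf3 (-0.73, adjusted p = 0.105), Bcl11a (0.15, 0.504) or Zeb1 (0.04, 0.769). The Ikzf3 average takes in 1453378_at, and the Bcl11a average 1447334_at and 1447335_x_at, which lie near the lowest value.

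Within single genes, 19 pairs of probe sets were compared for unequal change by an exact permutation test of their within-array difference. Of these, 7 reached the smallest possible p of 0.0286, and 0 passed after adjustment over the 19 pairs. At that floor no pair can pass unless at least 11 reach it, so the adjusted result says little. The 7 were the pairs of the brightest Zeb2 probe set with 1456389_at and 1458941_at, of the brightest Bach2 probe set with each of the others, of the brightest Bcl11a probe set with 1426552_a_at and 1457072_at, and of the brightest Zeb1 probe set with 1446127_at. Where each probe set lies along its transcripts was not examined.

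No change of Irf4 or Irf8 was detected. Irf4 encodes the factor that drives light chain recombination and cell cycle exit in pre-B cells. The probe set 1421173_at read 13.92, 14.16, 14.35 and 14.46 in menin-deficient cells, against 14.38, 14.26, 14.42 and 14.34 in control cells. The groups overlapped (log2 difference -0.12, 95% interval -0.40 to 0.15, limma adjusted p = 0.531), and the dim probe set 1421174_at differed by -0.28 (adjusted p = 0.555). Irf8, whose product shares targets with IRF4 in pre-B cells and drives myeloid and dendritic cell fates, read 13.32, 13.47, 13.81 and 13.70 in menin-deficient cells and 13.24, 13.27, 13.74 and 13.48 in control cells on 1416714_at. The log2 difference was 0.14 (95% interval -0.21 to 0.50, limma adjusted p = 0.566). The probe set 1448452_at of Irf8 differed in the other direction, by -0.39 (95% interval -0.68 to -0.09, adjusted p = 0.0889), and did not pass. The within-array difference of Irf8 minus Irf4 averaged -0.65 in menin-deficient cells and -0.91 in control cells (change 0.26, two-sided exact permutation p = 0.0857).

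**Figure D3:**
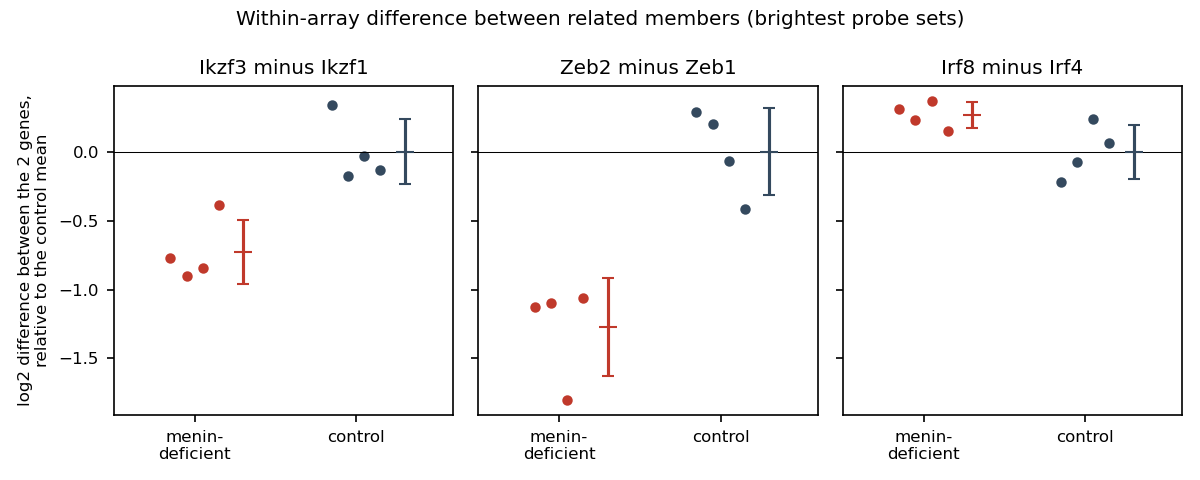
Within-array differences between relatives (Ikzf3 minus Ikzf1, Zeb2 minus Zeb1, Irf8 minus Irf4), on the log2 scale relative to the control mean, 1 point per array with menin-deficient left of control. Menin-deficient arrays lie below all control arrays for the first and middle pairs and overlap them for the last.

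Adjusted over these 3 pairs of relatives, the p was 0.0429 for Ikzf3 minus Ikzf1, 0.0429 for Zeb2 minus Zeb1 and 0.0857 for Irf8 minus Irf4. At the smallest possible p no pair could pass unless at least 2 of the 3 reached it. The pass of Ikzf3 minus Ikzf1 thus depended on that of Zeb2 minus Zeb1, whose separation was fixed by the values of its genes. The pairs were chosen with the falls of Ikzf3 and Zeb2 already known. The adjusted p of Ikzf3 minus Ikzf1 was 0.0857 without control replicate 1, 2 or 4 and 0.0571 without control replicate 3, and that of Zeb2 minus Zeb1 was 0.0857 without control replicate 1, 2 or 4. Irf8 minus Irf4 reached 0.0429 without control replicate 3.

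**Figure D4:**
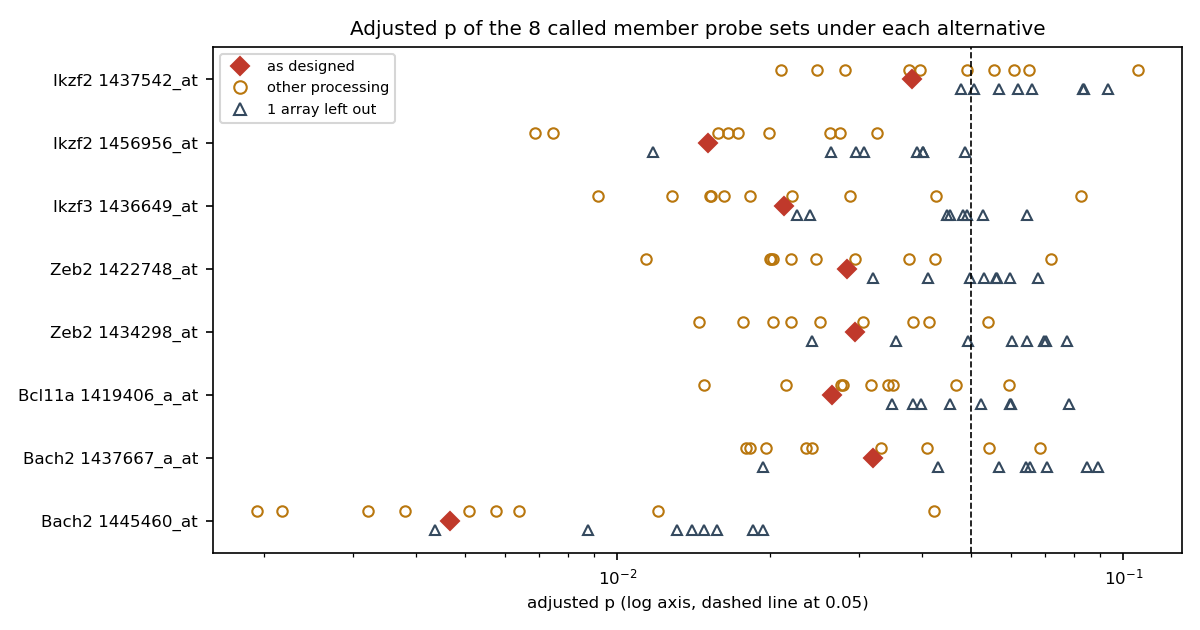
Limma adjusted p (horizontal, log scale) of the 8 member probe sets that passed the test, under each other setting, with a line at 0.05. Ikzf2 1456956_at and Bach2 1445460_at lie on the passing side throughout. Ikzf2 1437542_at passes in 8 of 19 settings, among them the average over probe sets, which is not drawn.

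Across the settings drawn in the plot of adjusted p, Ikzf2 1456956_at and Bach2 1445460_at passed in 17 of 17. With averages over probe sets counted as well where they apply, Ikzf3 1436649_at passed in 15 of 19 and Zeb2 1422748_at in 13 of 19. Bcl11a 1419406_a_at passed in 12 of 17, Zeb2 1434298_at in 11 of 17 and Bach2 1437667_a_at in 9 of 17. A block for the replicate number also removed the calls of Ikzf2 1437542_at (limma adjusted p = 0.107), Ikzf3 1436649_at (0.0824) and Zeb2 1422748_at (0.0721). The same held for Bcl11a 1419406_a_at (0.0595) and Bach2 1437667_a_at (0.0686). The member probe sets that passed numbered 2 without menin-deficient replicate 2, 4 without control replicate 3 or 4, 5 without menin-deficient replicate 3, control replicate 1 or control replicate 2, and 6 without menin-deficient replicate 1 or 4.

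The genes whose values over the 8 arrays, centred on their own mean, followed a member most closely were taken for the 3 members whose brightest probe set passed the test. Since these members differ between the groups, the choice largely fixes that their neighbours do too, and the values are a description. For Ikzf2 1437542_at these were Slc40a1, the iron exporter ferroportin, with a mean absolute difference of 0.0776, and Nfe2, an erythroid and megakaryocytic transcription factor, with 0.0782. The log2 difference was 0.57 for Slc40a1 and 0.68 for Nfe2. For Ikzf3 the nearest were Rbpms, an RNA-binding protein gene, at 0.0862 and Abhd17b, a depalmitoylase gene read by a probe set that may hybridise to other transcripts, at 0.107. For Zeb2 1422748_at they were Sypl, a synaptophysin-like vesicle protein gene, at 0.107 and Ube3a, a ubiquitin ligase gene, at 0.124. Their log2 differences were -0.75 for Rbpms, -0.71 for Abhd17b, -0.95 for Sypl and -0.90 for Ube3a.

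Genes around the members were taken in 5 lists, with the brightest tested probe set standing for each gene, where 21.3% of all 11885 tested genes passed, 16.2% rising and 5.17% falling, and the median difference was 0.11. Among other members of the same families, 4 of 8 tested genes rose, 1 fell and 3 did not pass. The risers were Bach1 (0.40, adjusted p = 0.00527), which represses haem oxygenase, Irf1 (0.58, 0.0108), Irf5 (0.42, 0.0235) and Irf7 (1.10, 0.00754), which serve interferon responses. Irf2, an antagonist of Irf1, fell, with a log2 difference of -0.67 (adjusted p = 0.0170). Other probe sets of Bach1 (0.30, adjusted p = 0.432) and Irf5 (0.02, adjusted p = 0.951) did not pass. Irf5 lost its call without any 1 of control replicates 2, 3 and 4 and menin-deficient replicates 2, 3 and 4 (adjusted p 0.0508 to 0.0681), and Irf2 without menin-deficient replicate 2 (0.0529). The median of the list was 0.26.

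Of 18 genes for corepressor and chromatin remodelling subunits that Ikaros and ZEB proteins recruit, 4 rose, 1 fell and 13 did not pass, with a median of 0.12. Mta3, a NuRD subunit of B-lineage cells, rose by 0.79 (adjusted p = 0.00314) and by 0.83 on its other probe set (adjusted p = 0.00449). Mbd3, the NuRD methyl-binding-domain subunit, rose by 0.52 (0.00399). Ctbp2, the corepressor that ZEB proteins bind, rose by 0.58 (0.00268), although its other probe set differed by -0.39 (adjusted p = 0.136). Sin3a rose by 0.31 (0.0352) but lost the call after quantile normalization (0.0741), after median centring (0.0947), with sex in the model (0.0563) and without any 1 array except control replicate 3 and menin-deficient replicate 1 (0.0691 to 0.0951). The other Sin3a probe sets differed by 0.18 (adjusted p = 0.494) and -0.20 (0.665). Gatad2a, a NuRD scaffold, fell by 0.37 (0.00937), while none of its other probe sets passed.

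Of 7 tested partners on DNA, 1 rose and 0 fell by limma, with a median of 0.02. The riser was Batf, an AP-1 factor that pairs with IRF4, at 0.72 (adjusted p = 0.0272), a call lost by the omission of 1 array (control replicate 1, 3 or 4, or menin-deficient replicate 2, 3 or 4, adjusted p 0.0524 to 0.0692). Spi1, which encodes PU.1, differed by -0.13 and Spib by 0.02, neither passing. Among 5 tested genes that members of these families are known to repress, Cdkn1a, a cyclin-dependent kinase inhibitor, rose by 1.07 (adjusted p = 0.00587) and Epcam, an epithelial adhesion molecule, by 1.71 (0.0151). The other Cdkn1a probe set differed by 0.38 (adjusted p = 0.108) and Epcam's by -0.13, neither passing. Cdh1 (E-cadherin, the classic ZEB target) differed by -0.03, Hmox1 by 0.03 and Prdm1, the plasma cell regulator repressed by BACH2, by 0.66, and none of these passed. All 3 were dim, with means of 4.74, 3.66 and 3.94 in menin-deficient cells and 4.77, 3.62 and 3.28 in control cells, and Hmox1 held 1 repeated value on 5 of 8 arrays, so a lack of a call says little here.

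Genes that Ikaros, Aiolos, IRF4 and IRF8 regulate at the pre-B transition moved both ways: of 18, 4 rose, 4 fell and 10 did not pass, with a median of 0.03. The surrogate light chain gene Igll1, which Ikaros family proteins silence in pre-B cells, rose by 0.38 (adjusted p = 0.0457). It was read by a probe set that may hybridise to other transcripts. The other Igll1 probe set, near the lowest value, differed by -0.12 (adjusted p = 0.272). Dntt, the terminal transferase gene, rose by 0.35 (0.00442), with -0.44 on another probe set that did not pass (0.0727). Blnk, the adaptor of pre-B receptor signalling, rose by 0.39 (0.0466), and Ccnd2, cyclin D2, by 0.60 (0.0457). None of the other 6 Ccnd2 probe sets passed, and their log2 differences ran from -0.44 to 0.49. Cdkn1b, which encodes the cell cycle inhibitor p27, fell by 0.63 (0.0175), though not on its other probe set, where the log2 difference was 0.06. Il2ra, encoding CD25, the surface marker of small pre-B cells, fell by 0.87 (0.0206). Its other probe set differed by -0.46 (adjusted p = 0.395) and did not pass. Cxcr4, a chemokine receptor, fell by 0.42 (0.0387) and Rag1, the recombinase gene, by 0.28 (0.0326). Rag1 sequences also drive Cre in the menin-deficient group only. For Rag1, an effect of that Cre construct therefore cannot be told apart from the loss of menin. The list genes that passed were followed in 11 settings: quantile normalization, median centring, sex in the model and the omission of each array. The replicate block and the mean of probe sets were not among these 11. Of these 8 calls, only that of Dntt held in every one of the 11 settings. With the mean of probe sets for each gene, 0 of the 18 genes rose, so the rise of Dntt was lost there. Cdkn1b lost its call without menin-deficient replicate 2 (adjusted p = 0.0526) and Il2ra without control replicate 4 (0.0546) or menin-deficient replicate 2 (0.0591). Igll1, Blnk and Ccnd2 lost it after quantile normalization and after median centring. With 1 array left out, Igll1 passed only without control replicate 3, Blnk only without control replicate 2 or 4, Ccnd2 and Cxcr4 only without control replicate 2, and Rag1 only without control replicate 2 or menin-deficient replicate 3 (adjusted p elsewhere 0.0599 to 0.117). For Ccnd2 another probe set stood for the gene without menin-deficient replicate 1 or 3, so that it had no value there. With sex in the model the adjusted p was 0.0785 for Blnk, 0.0637 for Ccnd2 and 0.0518 for Rag1.

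**Figure D5:**
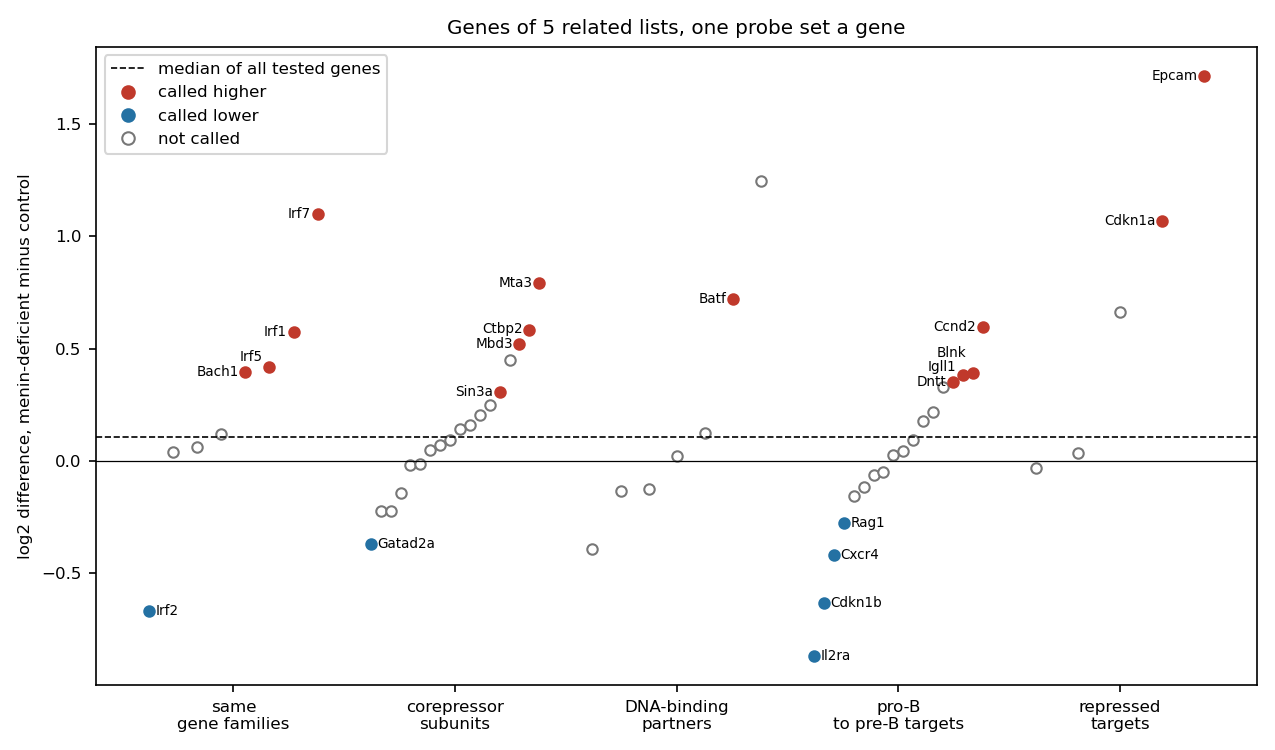
Log2 differences, menin-deficient minus control, of the tested genes in the 5 lists of relatives, corepressors, DNA partners, pre-B targets and repressed targets (1 point per gene; coloured points passed an adjusted p of 0.05). The dashed line marks the median of all tested genes, 0.11.

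Markers of other cell types were read against the 16.2% of all tested genes that rose. The sort on B220 and CD43 would remove most T cells, monocytes and natural killer cells, and small pre-B and later B cells, which lack CD43. Of 5 tested T cell markers 4 rose (Cd3g, Cd5, Lat and Thy1), and the summed level over the list was 11.33 to 11.78 in menin-deficient cells and 9.33 to 10.02 in control cells. Cd3g lost its call without control replicate 2, 3 or 4 or menin-deficient replicate 1, 2 or 4 (adjusted p 0.0553 to 0.0764). The T cell markers Cd3d, Cd3e, Cd4 and Cd8b1 had means within 1 log2 unit of the lowest value. Natural killer markers summed to 11.64 to 12.75 in menin-deficient cells and 10.90 to 11.53 in control cells, with 3 of 9 rising and Klrk1 and Il2rb near the lowest value. Of the 3, Ncr1 held in all 11 settings. Gzmb lost its call after quantile normalization (adjusted p = 0.0557) and without any 1 array except control replicate 2 and menin-deficient replicate 1 (0.0582 to 0.0910). Nkg7 lost it without any 1 array except the same pair (0.0509 to 0.0619). These lists concern Ikzf2, which both cell types express, and their part in its rise was not tested. Monocyte markers summed to 14.40 to 15.16 in menin-deficient cells and 14.02 to 14.25 in control cells, with 3 of 10 rising and Itgam and Fcgr1 near the lowest value. Of the 3, Ccr2 held in all 11 settings. Its other tested probe sets differed by 1.22 (limma adjusted p = 0.00775, passing), 0.32 (0.132) and 0.02 (0.919). Lyz2 lost its call after quantile normalization (adjusted p = 0.0560) and without any 1 array except control replicate 3 and menin-deficient replicate 1 (0.0717 to 0.0988). Mpeg1 lost it without any 1 array except control replicate 2 and menin-deficient replicate 1 (0.0616 to 0.0717). Markers of plasmacytoid dendritic cells, which express Bcl11a, Irf8 and Zeb2, summed to 13.02 to 13.53 in menin-deficient cells and 11.91 to 12.84 in control cells. Of these markers 2 of 11 rose, Ccr9 and Irf7, a share near that of all genes, and Tlr9 was near the lowest value. Irf7 was also counted above among the relatives of the members. The brightest marker, Bst2, weighs most in the sum, at 12.83 in menin-deficient cells and 11.94 in control cells. It did not pass the test (limma adjusted p = 0.0592). The median difference of the 11 markers was 0.88, against 0.11 over all tested genes. It was 1.33 over the tested T cell markers, 0.89 over natural killer and 0.30 over monocyte markers. Zeb2 is also high in monocytes and natural killer cells. The part of the plasmacytoid, monocyte and natural killer lists in the fall of Zeb2 was not tested.

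Markers of pre-B and later B cells, which make more Ikzf3 than pro-B cells, ran from 14.69 to 15.26 in menin-deficient cells and from 14.95 to 15.46 in control cells. None of the 8 rose, Il2ra fell, and the median difference was -0.41. Their part in the lower Ikzf3 was not tested. Plasma cell markers, which relate to Bach2, summed to 15.25 to 15.42 in menin-deficient cells and 15.09 to 15.19 in control cells. That sum mostly reads Mzb1, the brightest of them, at 14.96 in menin-deficient cells and 14.62 in control cells. Of 6 tested, Mzb1 rose, while Jchain and Sdc1 fell, with log2 differences of -2.85 and -1.16. Their part in the lower Bach2 was not tested either.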

How the data were processed

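Total RNA of sorted Fraction B cells from 8 mice was amplified, labelled with biotin and hybridised to 8 arrays, per the labels' protocols. The deposited values are log2 signals, judged from their range. MAS5 and GCRMA stand in the submitters' processing notes, with no version and no word on which one gave the deposited signals. No detection calls or hybridisation dates were analysed, and the number of arrays limits the precision. The labels describe the replicates as biological.

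Probe sets were named from the platform annotation only where it gives 1 symbol (34945 of 45037, with 932 having several and 9160 none, besides 64 control probe sets). A probe set was tested where 4 or more of the 8 arrays had it above that array's 40th percentile, which left 26790. The fit used limma 3.58.1 in R 4.3.3 (lmFit, then eBayes), menin-deficient against control with no covariate; p-values were adjusted by Benjamini-Hochberg and called under 0.05. For the lists, the probe set with the highest mean stood for each of 11885 genes, in a fit of its own. Pairs of probe sets and of relatives were tested by exact permutation of the 8 arrays. Alternatives covered quantile normalization, median centring, other filters, and 1 probe set or the mean of probe sets for each gene. They also covered eBayes with a trend and robust fitting, array weights, sex, a replicate block and leaving out each array. Sex was inferred from expression: an array counted as male where Eif2s3y exceeded Xist, which gave 2 menin-deficient and 1 control array. The omission of probe sets that may cross-hybridise was added after the data had been seen. All member probe sets are named, and other genes come from the lists, from markers or as the 2 nearest patterns of a member. The members and lists were chosen with earlier results of these data known. The fit was tested on simulated data. Figures used matplotlib 3.10.9 in Python 3.11.15.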

Additional observations from a re-analysis of the deposited data

Results flagged for a closer look

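Among the 61 groups of 4 arrays with any spread, 9 held an array whose gap to the nearest other array, divided by the range of the group, was above Dixon's 95% critical value for 4 arrays. Chance gives about 1 in 20 for normally distributed values. Where the other arrays of a group are tied, the ratio is 1 however small the gap. This was so for Ikzf1 1421303_at and Bcl11a 1453814_at, so the count of 9 is a description and cannot be set against that rate. Among probe sets well above background, Zeb2 1422748_at was low at 11.57 in menin-deficient replicate 3, the others lying between 12.28 and 12.40, and without that array the fall still passed the test. Zeb2 1454200_at was low at 8.13 in control replicate 2, against 8.58 to 8.66 in the others, and Bcl11a 1456632_at was low at 12.52 in that same array, against 13.07 to 13.14. The remaining ones were dim. Ikzf1 1421303_at stood at 4.06 in menin-deficient replicate 2. Ikzf3 1453378_at stood at 4.24 in control replicate 3. Ikzf3 1441088_at stood at 2.27 in menin-deficient replicate 2 and at 2.82 in control replicate 1. Bcl11a 1453814_at stood at 2.085 in menin-deficient replicate 2, against the lowest value of 2.079 in the others, and 1447334_at at 3.76 in control replicate 1.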

How the results depend on the processing

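With 1 probe set a gene, or with the mean of probe sets, 3 of 10 members passed, where 8 of 29 member probe sets had. Those 8 became 3 with the replicate block, 5 with sex in the model and 2 to 6 when 1 array was left out. Over all features, 3808 of 26790 probe sets became 2536 and 2011 of 11885 genes, and 1083 probe sets with the block and 1786 to 3366 without 1 array. Array weights raised the 3808 to 4954, and eBayes with a trend and robust fitting to 3844. The member count was 8 in both of these settings. The 21 calls in the 5 lists became 10 with the mean of probe sets, 12 with the replicate block and 10 to 18 without 1 array, and the pairs of relatives that passed ranged from 0 to 2. The replicate numbers share only a number: same-numbered arrays had correlations of deviations of -0.0507, -0.260, -0.137 and 0.0807. Of 506 member values under other settings, 40 no longer passed. All 40 belong to the 8 probe sets that had passed, since only those could lose a call. The losses ran from 0 of 17 settings for Bach2 1445460_at and Ikzf2 1456956_at to 11 of 19 for Ikzf2 1437542_at. Of the 506 values, 454 kept their direction and side of the threshold, many of them from probe sets that had not passed. A further 4 newly passed and 8 turned sign. Those that turned were all small: Ikzf1 1421303_at after quantile normalization (-0.0429) and centring (-0.0115), Ikzf5 1436554_at after both (-0.0303 and -0.0278), with sex (-0.0146) and when control replicate 2 or menin-deficient replicate 2 was left out (range over omitted arrays -0.0392 to 0.0748), and the mean of the Irf8 probe sets (-0.12). The change of Zeb1 1418926_at relative to 1443005_at turned without control replicate 1, menin-deficient replicate 3 or menin-deficient replicate 4 (range over omitted arrays -0.11 to 0.11). The cause was not tested. Dim values carry little information, and 4 arrays a group limit what passes.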
